A study of Mus musculus with 8 samples.

Results

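The 9 genes described here are antiproliferative and stress-response genes: Gadd45a, Gadd45b and Gadd45g, Btg1, Btg2 and Btg3, the cyclin-dependent kinase (CDK) inhibitors Cdkn1a and Cdkn1b, and Trp53, out of 21883 protein-coding genes. They were chosen by name, with the peak coverage of Gadd45a (low in the knockout) and of Btg1 (high in the knockout) already known, so the genotype differences given for them are descriptions without a test. Around each gene, the span in the RefSeq annotation plus 2 kb on each side was taken as its window. The material was genomic DNA of spleen germinal center B cells from the mouse strain C57BL/6, labelled TET2 Wild-Type (WT) or TET2 Knock-Out (KO). Each genotype had 2 libraries enriched for 5-hydroxymethylcytosine (5hmC) by hydroxymethylated DNA immunoprecipitation (hMeDIP), called replicates 2 and 3 in the labels, and 4 input libraries have no processed values analysed here. The knockout allele, any Cre driver, the age and sex of the animals, immunization and pooling are not given in the sources used here. RNA was not measured, so the germinal center identity of the cells was not checked against marker expression.

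TET enzymes convert 5-methylcytosine into 5hmC, a mark that is common in the bodies and flanks of active genes and scarce at CpG-rich start sites. GADD45 proteins are small stress-induced adaptors that bind MAP3K4, PCNA and cyclin-dependent kinase complexes, and Gadd45a has been linked to active DNA demethylation. BTG proteins slow proliferation and bring the CCR4-NOT deadenylase to mRNAs, and BTG1 is often mutated in lymphomas of germinal center origin. Cdkn1a encodes p21 and Cdkn1b encodes p27, both of which bind and restrain cyclin-CDK complexes. Trp53 encodes p53, the transcription factor that activates Cdkn1a, Gadd45a and Btg2 after DNA damage. Germinal center B cells divide fast, and their factor BCL6 is known to repress Trp53 and Cdkn1a.

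Stretches just before start sites are shown first. No library had a peak there at any of the 9 genes, which is also so at most starts of protein-coding genes. RefSeq gives 11 annotated starts for them, 2 each for Cdkn1a and Btg3, and all 11 stretches of 250 bases were free of peaks in the 4 libraries. Over 21262 annotated starts of protein-coding genes, 7.73% had a peak of any library in the same stretch and 3.54% a peak of every library. The 5 printed below are those of Gadd45a, Btg1 and Btg2, the members in the genome-wide fit whose genotypes did not overlap in coverage, and of both Cdkn1a starts, which differ in CpG count. They are from RefSeq (GRCm38.p6), 5′ to 3′ on the strand of the gene, and end at the base before the start. Capitals mark CpG dinucleotides, the sites of most 5mC and 5hmC, except in the upstream start of Cdkn1a.
Gadd45a, chr6:67037408-67037657, minus strand: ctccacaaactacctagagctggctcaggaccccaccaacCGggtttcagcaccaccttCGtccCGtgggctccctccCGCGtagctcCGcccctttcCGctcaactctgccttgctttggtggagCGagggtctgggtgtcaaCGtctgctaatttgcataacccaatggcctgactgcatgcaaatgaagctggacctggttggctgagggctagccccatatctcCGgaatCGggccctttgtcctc
Btg1, chr10:96616751-96617000, plus strand: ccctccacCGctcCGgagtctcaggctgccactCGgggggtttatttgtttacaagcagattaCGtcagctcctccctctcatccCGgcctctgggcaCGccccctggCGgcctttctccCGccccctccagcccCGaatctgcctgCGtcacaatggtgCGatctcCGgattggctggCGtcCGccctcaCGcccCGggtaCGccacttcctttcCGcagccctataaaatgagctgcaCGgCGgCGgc
Btg2, chr1:134079156-134079405, minus strand: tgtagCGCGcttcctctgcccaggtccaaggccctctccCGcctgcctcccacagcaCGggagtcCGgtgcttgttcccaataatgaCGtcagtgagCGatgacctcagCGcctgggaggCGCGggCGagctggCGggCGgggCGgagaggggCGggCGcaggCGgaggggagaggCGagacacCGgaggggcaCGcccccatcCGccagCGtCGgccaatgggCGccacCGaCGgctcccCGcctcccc
Cdkn1a, downstream start, chr17:29093519-29093768, plus strand: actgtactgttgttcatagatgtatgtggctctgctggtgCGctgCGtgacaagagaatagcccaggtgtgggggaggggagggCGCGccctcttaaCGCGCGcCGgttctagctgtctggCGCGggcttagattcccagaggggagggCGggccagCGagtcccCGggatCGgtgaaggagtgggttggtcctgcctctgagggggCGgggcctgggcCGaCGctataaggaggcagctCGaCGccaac
Cdkn1a, upstream start, chr17:29090729-29090978, plus strand, with capitals marking a pair of CATG cores: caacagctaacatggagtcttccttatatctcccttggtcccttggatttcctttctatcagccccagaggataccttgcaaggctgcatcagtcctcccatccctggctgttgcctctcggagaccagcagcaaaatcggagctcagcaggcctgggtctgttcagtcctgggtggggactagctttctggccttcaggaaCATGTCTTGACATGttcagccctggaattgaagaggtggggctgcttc

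CpG counts in these stretches differed widely among the genes. Btg3 had the highest count, 29 at its inner start, followed by 28 at Cdkn1b and 27 at Btg2. Gadd45b had 22, Btg1 21, the downstream start of Cdkn1a 19, Gadd45g 16 and Gadd45a 11. Trp53 had 9, the outer start of Btg3 7 and the upstream start of Cdkn1a 2, beside a median of 10 over all starts. Peaks were uncommon on both sides of that median: 6.996% of the 10649 starts with at least 10 CpG had a peak of any library, and 8.47% of the 10613 with fewer. The letters CCAAT, read on both strands, occurred before 9 of the 11 starts and before 35.4% of all starts.

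**Figure D1:**
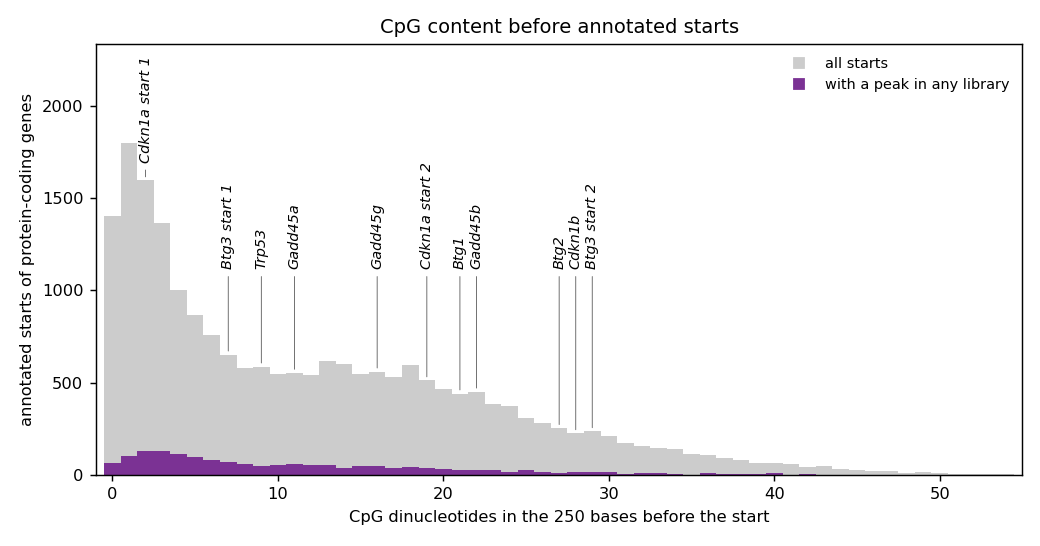
Number of annotated starts of protein-coding genes (y axis) by the count of CpG dinucleotides in the 250 bases before the start (x axis), in grey for all starts and in purple for those with a 5hmC peak in any library. Names mark the bar of each of the 11 starts of the 9 genes, which lie between 2 and 29 CpG and had no peak.

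The upstream start of Cdkn1a carries the motif CATGNNNNNNCATG, the core letters of a paired p53 half-site, which reads the same on both strands. It occurred before 90 of the 21262 starts (0.423%). The match CATGTCTTGACATG lies at 29090931 to 29090944 on chromosome 17 and ends 35 bases before the start. The 5hmC peak upstream of Cdkn1a ended 474 bases before this match in the library where it came closest, so the match lay outside the peak in every library. A match of these letters is a description, and binding of p53 was not measured.

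Peaks of the 4 libraries were merged where they touched, which gave 21 regions in the 9 windows. Of these, 11 (52.4%) had a peak in every library, beside 59.9% of 356368 merged regions over the genome. Replicate 2 of either genotype had a peak in 16 of the 21 and replicate 3 of either genotype in 15. In 8 of the 9 windows every library had a peak, beside 72.8% of all protein-coding genes, and the exception was Cdkn1b. By place, 8 regions lay inside a gene span, 2 across a gene end and 11 in the flanks, 7 of them before the start. None lay within 500 bp of the outermost start, where 17.2% of 17491 genes had one.

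**Figure D2:**
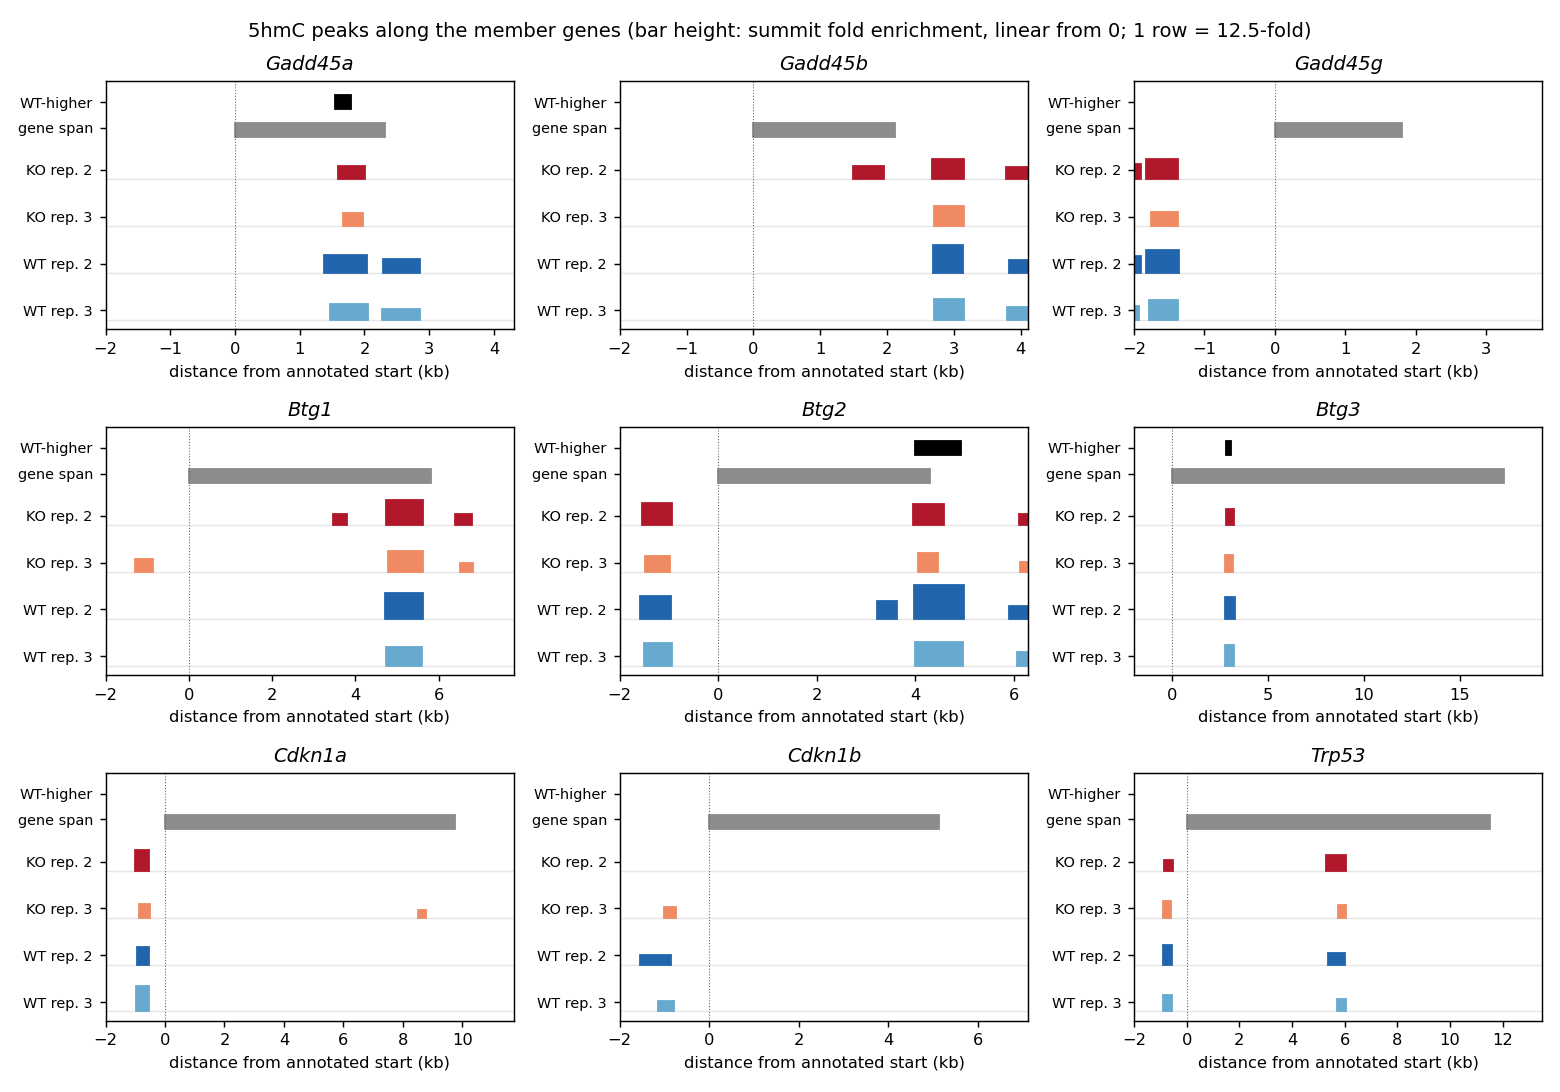
5hmC peaks in the window of each of the 9 genes, with distance from the annotated start in kb on the x axis and 1 row per library. Bar height is the summit fold enrichment of the peak, grey is the gene span and black is a region that the authors listed as higher in WT. Gadd45a, Btg2 and Btg3 have a black bar, and the dotted line at the start crosses no peak.

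Peak positions were shared closely where all libraries had a peak. Over the 11 regions, the summits of the 4 libraries spanned a median of 59 bp, from 20 bp upstream of Cdkn1a to 184 bp in the 3′ flank of Btg2. The strength of a peak is given as the authors' fold enrichment at its summit and as its percentile within its own list, since each list has its own scale, and folds set side by side for a region describe each library and are not compared. None of the 62 peaks ranked above the 90th percentile of its list, and 23 ranked above the 50th. The 18 peaks in regions that fewer than 4 libraries held were weak, at percentiles of 0.122 to 32.7 of their lists. Summits held 28 to 98 reads, recovered from the fold and −log10 p of each peak, over backgrounds of 8.66 to 16.2 reads. In each library the lowest background was also the median, so the same value recurred across genes. It was 11.6 and 10.9 reads in KO replicates 2 and 3 and 8.66 and 11.7 in WT replicates 2 and 3.

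**Figure D3:**
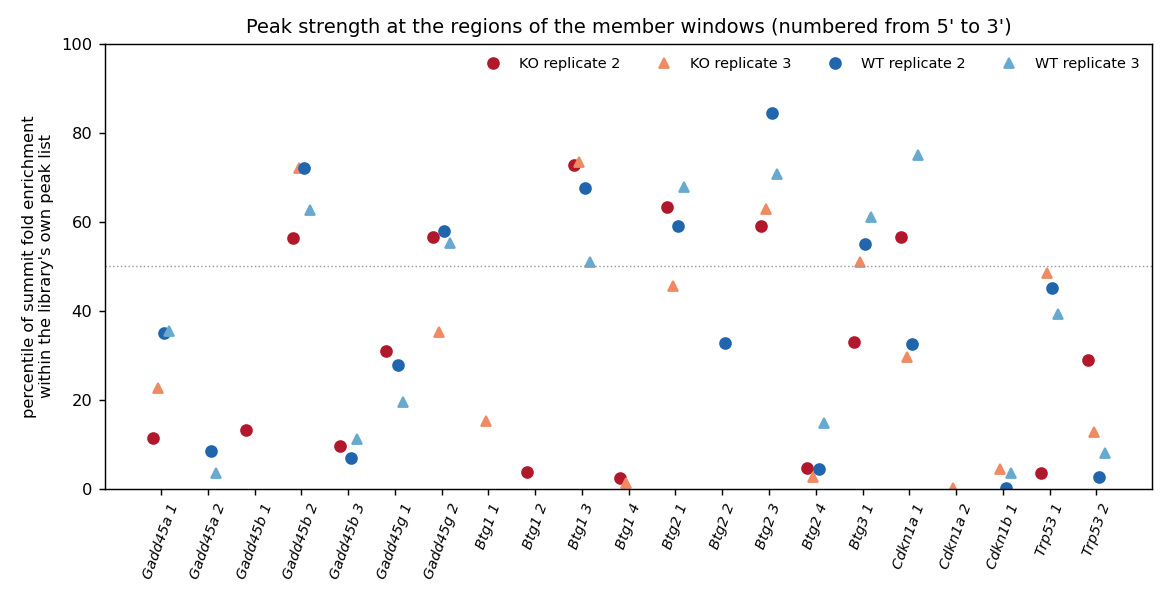
Percentile of the summit fold enrichment of each peak within the peak list of its library (y axis) for the 21 regions of the 9 windows (x axis, numbered from 5′ to 3′ in each gene), with 1 point per library that had a peak. The highest point is region 3 of Btg2 in WT replicate 2, at 84.4, and all regions with fewer than 4 points lie below 33.

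Gadd45a, the stress sensor of the GADD45 family, had the lowest log2 change, KO against WT, of the 6 members in the genome-wide fit (chromosome 6, 67035096 to 67037407, minus strand). Its window held 1223 and 1168 bases under peaks in WT replicates 2 and 3, but 414 and 308 in KO replicates 2 and 3. Both KO libraries lay below both WT libraries. Scaled to equal totals, WT had 1226 and 1077 bases and KO 388 and 362, a log2 change of -1.23 with a standard error of 0.21. Its mean passed the minimum of 500 bases for the genome-wide fit only through the WT libraries. The change was smaller, -0.53, in the gene span alone, and -0.55 with 10 kb flanks. It was -0.65 with a pseudocount of 1000 bases and -0.85 with equal numbers of peaks, where WT replicate 3 lost its peak in the second region and held 589 bases before scaling.

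The Gadd45a difference came from 2 neighbouring regions, the first in the 3′ part of the gene and the second mostly beyond its 3′ end. The first, 1374 to 2050 bp from the start, was a peak in every library, 414 and 308 bp wide in KO and 658 and 589 bp wide in WT. Its summit fold was 4.76 and 4.26 in WT replicates 2 and 3 and 3.51 and 3.57 in KO replicates 2 and 3. The summits held 45 and 53 reads in WT, over backgrounds of 8.66 and 11.7, and 43 reads in each KO library, over 11.6 and 11.3. The 95% counting intervals of these reads overlap, from 31.1 to 57.9 in either KO library, 32.8 to 60.2 in WT replicate 2 and 39.7 to 69.3 in WT replicate 3. The second region, 2274 to 2852 bp from the start and across the 3′ end, was a peak of the WT pair alone. Those WT peaks had folds of 3.62 and 2.92, at percentiles 8.47 and 3.52 of their lists. The lncRNA gene E230016M11Rik, which overlaps Gadd45a, shares this window, so 5hmC there cannot be assigned to 1 of the genes.

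Gadd45b, a GADD45 member induced by NF-kB signalling, had its main peak behind the gene (chromosome 10, 80930091 to 80932204). It lay 2671 to 3159 bp from the start, with folds of 7.35 and 5.68 in WT replicates 2 and 3 and 5.43 and 5.48 in KO replicates 2 and 3. KO replicate 2 alone had a peak inside the gene, at 1491 to 1953 bp (fold 3.59). A further weak region, 3784 to 4199 bp from the start, had a peak in both WT libraries and KO replicate 2 but not in KO replicate 3. Coverage of the window was 738 and 784 bases in WT and 1273 and 458 in KO, so the KO libraries enclosed the WT values. The log2 change of 0.12 (standard error 0.35) was 0.58 without KO replicate 3 and -0.33 without KO replicate 2.

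Gadd45g, the third GADD45 gene, carried 5hmC peaks only before its start (chromosome 13, 51846675 to 51848475). The stronger region lay 1365 to 1832 bp upstream, with folds of 5.50, 3.91, 6.09 and 5.20 in KO replicates 2 and 3 and WT replicates 2 and 3. A weaker one at 1900 to 2457 bp upstream lacked a peak in KO replicate 3. Coverage was 563 and 493 bases in WT and 563 and 386 in KO, and the groups overlapped (log2 change -0.04, standard error 0.27). Its scaled mean of 500.07 bases only just reached the minimum.

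Btg1, the lymphoma-mutated BTG gene, was the tested member with both KO libraries above both WT libraries (chromosome 10, 96617001 to 96622813, plus strand). The window held 1611 and 1577 bases under peaks in KO replicates 2 and 3, against 902 and 853 in WT replicates 2 and 3. The scaled values were 904 and 787 bases for WT and 1508 and 1855 for KO, with a log2 change of 0.84 (standard error 0.18).

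The strong Btg1 peak in the 3′ part of the gene was alike in width in the 4 libraries. It lay 4719 to 5630 bp from the start and was 878 and 842 bp wide in KO and 902 and 853 bp wide in WT. Its folds were 6.86 and 4.97 in WT replicates 2 and 3 and 6.77 and 5.56 in KO replicates 2 and 3. The rest of the KO coverage lay in weak peaks: 1 upstream in KO replicate 3 (fold 3.37), 1 inside the gene in KO replicate 2 (3.03) and 1 behind the gene in both KO libraries (2.87 and 2.53). Those 4 peaks ranked at percentiles 15.2, 3.83, 2.38 and 1.23 of their lists. With equal numbers of peaks per library, KO replicate 2 lost its weak peaks, and scaled coverage was 862 and 838 bases for WT and 817 and 1476 for KO. The groups then overlapped, at a log2 change of 0.31.

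Btg2, a BTG gene activated by p53, had the most densely covered window of the 9 genes (chromosome 1, 134074865 to 134079155, minus strand). Peaks covered on average 20.3% of its window, above 98.4% of protein-coding genes, whose median was 3.94%. WT replicates 2 and 3 had 2441 and 1779 bases under peaks and KO replicates 2 and 3 had 1448 and 1076, with both KO libraries below both WT libraries. The scaled pairs were 2447 and 1640 for WT and 1356 and 1266 for KO, a log2 change of -0.55 (standard error 0.22). It was -0.29 without WT replicate 2. Most of the coverage lay in the flanks in every library. In the gene span alone, WT replicates 2 and 3 had 725 and 283 scaled bases and KO replicates 2 and 3 had 323 and 276. The genotypes overlapped there, and the mean was under the minimum, so the span alone has no log2 change.

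The peak at the 3′ end of Btg2 reached percentile 84.4 of its list in WT replicate 2, the highest of the 62 peaks. It lay 3946 to 4991 bp from the start, was 641 and 409 bp wide in KO and 1016 and 983 bp wide in WT, and had folds of 5.66, 4.97, 9.01 and 6.31 in KO replicates 2 and 3 and WT replicates 2 and 3. A region before the start, at 936 to 1582 bp upstream, had folds of 5.96, 4.23, 6.16 and 6.05 in the same order. WT replicate 2 alone had a further peak inside the gene, 3218 to 3624 bp from the start (fold 4.66).

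Btg3, the longest of the 9 genes, had a single region (chromosome 16, 78359860 to 78377181, minus strand). It lay 2739 to 3258 bp from the outer start, and peaks covered 486 and 448 bases in WT and 416 and 426 in KO, with overlapping scaled values. Folds were 4.30, 4.47, 5.90 and 5.52 in KO replicates 2 and 3 and WT replicates 2 and 3. Only 2.08% of its window was covered, the lowest share of the 9, and its mean was under the minimum for the fit. Its window reaches the end of the neighbouring gene Cxadr, and that stretch held no peak.

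Cdkn1a had its shared peak upstream and none inside the gene that more than 1 library held (chromosome 17, 29090979 to 29100722). The upstream peak lay 522 to 1000 bp before the outer start, with folds of 4.63 and 6.69 in WT replicates 2 and 3 and 5.50 and 3.79 in KO replicates 2 and 3. KO replicate 3 added a peak of fold 2.08 inside the gene, at percentile 0.122 of its list. Coverage was 394 and 436 bases in WT and 452 and 619 in KO, and the mean was under the minimum.

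Cdkn1b carried the weakest signal, a single region 747 to 1546 bp before the start (chromosome 6, 134920401 to 134925525). It covered 692 and 355 bases in WT replicates 2 and 3, 267 in KO replicate 3 and 0 in KO replicate 2. Its folds of 2.86, 2.47 and 2.90 ranked at percentiles 4.45, 0.171 and 3.44 of the lists of KO replicate 3, WT replicate 2 and WT replicate 3. The region without a peak in KO replicate 2 was thus weak in the other libraries too, and the gene did not reach the minimum.

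Trp53 had 2 regions, both with a peak in every library (chromosome 11, 69580348 to 69591873). The upstream one, 540 to 916 bp before the start and inside the span of the neighbouring gene Wrap53, had folds of 2.96, 4.38, 5.28 and 4.41 in KO replicates 2 and 3 and WT replicates 2 and 3. The inner one, 5292 to 6063 bp from the start, had folds of 4.14, 3.29, 3.11 and 3.23. Coverage was 1002 and 673 bases in WT and 1104 and 590 in KO, with overlapping groups and a log2 change of 0.08 (standard error 0.29). Without KO replicate 3 the change was 0.31 and without KO replicate 2 it was -0.15.

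**Figure D4:**
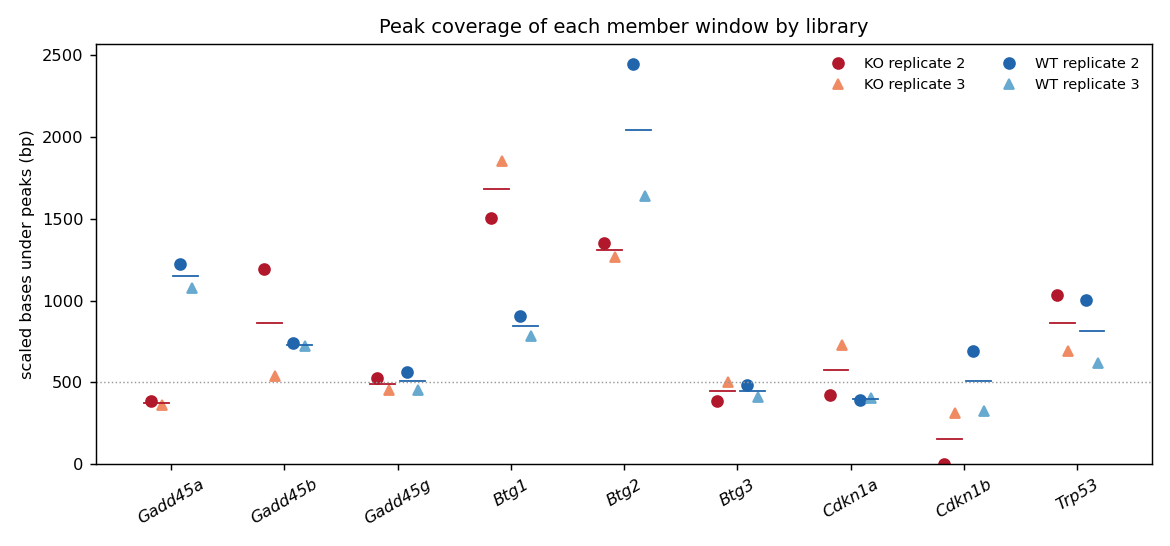
Bases under peaks in each window, scaled to equal library totals (y axis), for the 9 genes (x axis), with 1 point per library and a line at the mean of the 2 libraries of a genotype. The dotted line is the minimum mean of 500 bases, and the KO and WT points are apart at Gadd45a, Btg1, Btg2, Cdkn1a and Cdkn1b, the last 2 below the minimum. At those 2 the nearest points are close, 423 in KO and 402 in WT at Cdkn1a and 314 in KO and 327 in WT at Cdkn1b. Among the 14000 genes in the fit, 13.6% had both KO below both WT values and 18% both above. No such share was computed for genes under the minimum.

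The genome-wide fit called no gene. In limma with Benjamini-Hochberg adjustment over 14000 genes, 0 were higher in KO (0%) and 0 were lower (0%) at an adjusted p under 0.05, and 567 had an unadjusted p under 0.05. All 6 members in the fit were therefore uncalled, and 3 were not in it. Of those 6, 2 (Gadd45a and Btg2) had both KO values below both WT values, as did 13.6% of the 14000 genes, and 1 (Btg1) had both above, as did 18% of them. The choice of members used this contrast, so nothing is read from these counts. The labels do not say that replicates came from separate animals, and the p-values measure only the spread between these libraries.

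**Figure D5:**
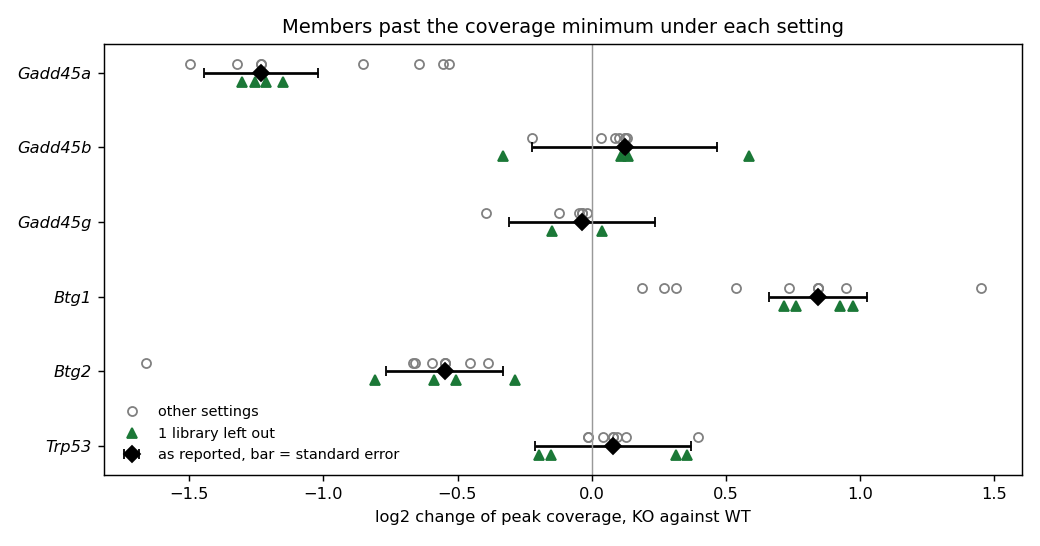
Log2 change of peak coverage, KO against WT (x axis), for the 6 members that passed the minimum, as reported (black, bar for the standard error), with 1 library left out (green triangles) and under other settings of scaling, filter, window, peaks or block (grey circles). Gadd45a and Btg2 stay below 0 and Btg1 above 0 in every setting that gave a value, while Gadd45b, Gadd45g and Trp53 cross 0. Btg2 has no value for the gene span alone, where its coverage was under the minimum and the genotypes overlapped. In the windows as reported, the genotypes did not overlap at Gadd45a, Btg1 and Btg2, so leaving out 1 library could not change their sign. The other settings use the same libraries.

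The authors' deposited tables list 24645 regions enriched in WT (called WT-higher here) and 50 enriched in KO. Of the 9 windows, 3 (33.3%) held a WT-higher region of the authors' deposited table, 1 each in Gadd45a, Btg2 and Btg3. Such a region occurred in 23.7% of all protein-coding windows, and in 11.8% of the 7697 windows that held a peak and were no longer than that of Btg3. No window held a KO-higher region, which 0.0868% of all windows did. These shares use the same contrast as the choice of the genes and are given as a description.

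All 3 regions lay on a peak that every library had. In the authors' deposited table the Btg2 region (chromosome 1, 134074229 to 134075172) has a score of 7.31, above all but 5.07% of the table. KO peaks covered 64.0% and 43.3% of it and WT peaks 100% and 99.9%. The Gadd45a region (chromosome 6, 67035618 to 67035861) has a score of 6.18 in the authors' deposited table, and KO peaks covered 82.4% and 49.6% of it and WT peaks all of it. The Btg3 region (chromosome 16, 78374094 to 78374361) scores 3.92 in the authors' deposited table, under its median of 4.77, and was covered in full in every library.

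Wider flanks held more WT-higher regions. Within 10 kb of the span, 6 of the 9 genes (66.7%) had 1 or more in the authors' deposited table, 9 regions in all, beside 31.5% of protein-coding genes. That background takes in genes of any length, with or without a peak. These shares too use the same contrast as the choice of the genes and are given as a description. Btg1, which had none in its window, had 2 there. One of them, 5416 to 5643 bp before the Btg1 start (chromosome 10, 96611358 to 96611585), has a score of 12.6 and rank 21 of 24645 in the authors' deposited table, and it is named here because of that score. WT replicates 2 and 3 had peaks of fold 6.31 and 5.13 there, and neither KO library had one. With 10 kb flanks, Btg1 coverage was 4259 and 4066 scaled bases for WT and 4417 and 5155 for KO, a log2 change of 0.19.

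Further flank regions in the authors' deposited table were 2 behind Btg2 (scores 6.28 and 4.70), 1 behind Cdkn1b (5.91) and 1 before Cdkn1a (3.88). The Cdkn1b region, 6365 bp behind the gene, lay on a strong peak in every library, with folds of 13.2, 9.27, 14.9 and 11.3 in KO replicates 2 and 3 and WT replicates 2 and 3. That before Cdkn1a lay on folds of 10.6, 6.91, 10.9 and 8.83 in the same order. Gadd45b, Gadd45g and Trp53 had none within 10 kb.

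The wider pathway was read from 48 further genes, of which 31 passed the minimum. Of these 31, 14 had more coverage in KO and 17 less, the median log2 change was -0.06 beside 0.02 over all genes tested, and 0 were called. The 7 BTG/TOB and deadenylase genes had a median of -0.10, the 5 genes of CDK inhibitors and their targets -0.16, the 6 GADD45 partners -0.19 and the 13 p53 regulators and targets 0.09. Cdk2, the kinase that p21 and p27 restrain, had the lowest log2 change (-1.54, standard error 0.73), with 869 and 1274 bases in WT and 713 and 0 in KO. Mdm2, the ubiquitin ligase of p53, followed at -1.51 (standard error 0.61), with 660 and 1021 bases in WT and 0 and 342 in KO. In both genes a KO library without any peak lies behind the value. The mean of each gene passed the minimum for the fit only through the WT libraries, as at Gadd45a. Genes under the minimum have no log2 change, so this ranking leaves them out and depends in part on that filter. Cnot1, the CCR4-NOT scaffold, was highest at 0.31 (standard error 0.12), with 2784 and 3357 bases in WT and 3744 and 3322 in KO. Prmt1, an arginine methyltransferase that binds BTG proteins, was next at 0.29 (standard error 0.19), with 1187 and 988 in WT and 1346 and 1166 in KO. The WT and KO bases given with these log2 changes are before scaling, where the genotypes overlap at Cnot1 and Prmt1. Scaled, Cnot1 had 2791 and 3095 bases in WT and 3505 and 3908 in KO. Prmt1 had 1190 and 911 scaled bases in WT and 1260 and 1372 in KO.

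Of the 48 genes, 10 (20.8%) had a WT-higher region of the authors' deposited table, 16 regions in all, beside the 23.7% of all genes. The p53 list held 12 of the 16, in 7 of its 18 genes. Usp7, a deubiquitinase that stabilizes MDM2, had 4, and Mdm4, a p53 inhibitor, Sesn1, a stress-induced mTORC1 regulator, and Map3k4, the kinase that GADD45 proteins activate, had 2 each. Ercc5, Cnot1, Mdm2, Trp63, Trp73 and Chek2 had 1 each. None of the 10 genes in the list of CDK inhibitors and their targets had one. The lists were not matched for gene length, and longer windows take in more sequence, so nothing is read from this difference between lists.

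The coverage profiles over the 4 libraries most like that of Gadd45a were those of Lypla2, Dctn6 and Psme1. Their Euclidean distances on the centred log2 scale were 0.18, 0.18 and 0.22, over 14000 genes. Lypla2 had 1224 and 984 scaled bases in WT and 445 and 348 in KO. Among the profiles nearest to Btg1 were Olfr921 (distance 0.12) and Rdh10 (0.15), and Rdh10 had 635 and 572 scaled bases in WT and 967 and 1288 in KO. With 4 libraries such likeness is a description only.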

How the data were processed

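hMeDIP libraries of 2 WT and 2 KO samples were analysed as deposited peak lists. The build GRCm38.p3, MACS2 2.1.0.20151222 and BWA 0.7.12-r1039 are named in the submitters' processing notes; settings, and whether the background came from the input, are not given in the sources used here. The authors deposited 1 list per library, with 270548 to 300954 peaks covering 110.6 to 139.3 Mb. Deposited per peak are a score (not used), the fold enrichment as a ratio to background, and the −log10 of its p-value and q-value. Per the file headers, the deposited tables of differential regions give regions enriched in KO or WT with a score; the score's scale, its caller and which libraries were compared are not given in the sources used here, and these calls have no replicate values.

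Reads per library are not given. The pileup at each member summit was recovered from fold and −log10 p as the whole number that returns the deposited −log10 p within 0.001; intervals are exact Poisson and cover counting error only. Gene spans and starts came from RefSeq (GRCm38.p6), without exons, so exons, introns and untranslated regions were not told apart. Bases under peaks were scaled to equal totals over gene windows and fitted as log2(bases + 200) with limma 3.58.1 (trend, robust) in R 4.3.3, two-sided, where the mean was 500 bases or more; this scale understates changes of low genes and removes a change shared by all genes. It counts bases, not peak height. The fit was tested on simulated data. Fold enrichments describe peaks by library and were ranked only within each list. Named are all 9 members, the pathway genes of most extreme change or most WT-higher regions, and the 3 nearest profiles to Gadd45a and Btg1, except 1 that is not reported here. Members, lists and rules were chosen with earlier results of these data known.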

Additional observations from a re-analysis of the deposited data

How the results depend on the processing

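No gene was called by limma under any of the 14 alternatives (no scaling, other pseudocounts, minimums, windows and peak sets, the replicate block, and each library left out); genes with an unadjusted p under 0.05 numbered 346 to 874 there. Leaving out 1 library gave 0 calls each time, with the lone library of a genotype assumed to vary like the others. With the replicate block the count was also 0 (828 at an unadjusted p under 0.05). The labels do not say whether same-numbered libraries were processed together. Their deviations correlated at 0.09 over 14000 genes, which cannot decide this because scaling removes an effect shared by a whole library. WT-higher regions in the 9 windows numbered 3, and 2 at a score of at least 5, but 9 with 10 kb flanks, which take in more sequence. KO-higher regions stayed at 0.

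Among single genes, the log2 change of Gadd45a ranged from -1.50 to -0.53, the latter with the gene span only, and among peaks of at least 5-fold it had no coverage. Btg1 ranged from 0.19 with 10 kb flanks to 1.45 among peaks of at least 5-fold, where WT replicate 3 had no peak left. Btg2 ranged from -1.66, in that same set, where KO replicate 3 had none left, to -0.29. It had no value with the gene span only, where its coverage was under the minimum and the genotypes overlapped. Gadd45b (-0.33 to 0.58), Gadd45g (-0.39 to 0.04) and Trp53 (-0.20 to 0.40) took both signs. Without scaling the median log2 change over all genes was -0.10 in place of 0.02. Peaks near the caller's threshold, and the 2 libraries per genotype, limit what these windows can show.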
